A study of Mus musculus with 30 samples.

Results

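The comparison is of microglia sorted from wild type mice with experimental autoimmune encephalomyelitis (EAE) at day 21 with microglia sorted from naive wild type mice. The 3 day 21 and 4 naive libraries were taken by their titles from the 30 bulk RNA-seq libraries of the series, which also holds knockout, day 35 and aged groups. Here wild type (WT) means Atg7wt/wt mice that carry Cx3cr1CreERT2, so both groups have the tamoxifen-inducible Cre and an intact Atg7, and neither is a mouse without transgene. All were young C57BL/6 mice given 4 mg tamoxifen on 3 occasions spaced by 48 h. EAE was started 18 days later at the earliest, by subcutaneous recombinant mouse myelin oligodendrocyte glycoprotein (residues 1 to 125) with pertussis toxin. The labels give no mock immunization for the naive mice. The Cre is driven from Cx3cr1, a gene of microglia and other mononuclear phagocytes, and the sort was for live CD11b+ CD45-intermediate Ly6G- cells, with or in place of an eYFP+ gate. Per the labels, cells of female and male mice were pooled 1:1 before RNA extraction. Library names carry 2 animal-like numbers in 6 of the 7 libraries and 1 in day 21 WT library 3. Nothing states that libraries of a group came from separate animals, so the p-values measure the spread between libraries only. For the edgeR p-values that spread is taken within the groups of all 30 libraries.

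Microglia are the resident macrophages of the brain and spinal cord, and EAE is an autoimmune inflammation of that tissue driven by T cells that recognize myelin. Type I interferons and interferon-gamma act on microglia through JAK kinases, STAT proteins and interferon regulatory factors, which switch on antiviral genes, immunity-related GTPases and the machinery that loads peptides onto MHC molecules. In many models of disease microglia also lower a set of homeostatic genes and raise a set named after disease-associated microglia.

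The 7 libraries held 4712803 to 11034565 counts, with a median of 6701350. The mice of the day 21 libraries had EAE scores of 2, 3 and 3, against 0 in the naive ones. Genes encoded by mitochondrial DNA took 6.41, 7.98 and 8.26% of the counts in day 21 WT libraries, against 2.14, 3.39, 6.73 and 2.47% in naive WT libraries. Principal component 1 held 61.9% of the variance and separated the groups. Component 2 (14.4%) ran among the naive libraries, with naive WT library 3 at the far end from library 1. That library stood apart from the other naive ones in many genes, and log2 fold changes that move by over 1.5 times on the linear scale when it is left out are also given without it. The i5 index, the only technical set in the labels, paired 1 day 21 with 1 naive library in 3 sets. Each gene's difference within those sets had the sign of its overall fold change for every gene chosen by the naming rule and called. Many of these genes were chosen because the groups did not overlap, which fixes that sign. The agreement is therefore not a check on the index set.

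The label microglia was checked against 8 microglia marker genes, 3 of which fell in day 21 WT and none of which was at 0 in any library. All 8 fell with the neutrophil marker covariate described below, Tmem119 among them (log2FC -1.14). Their summed level was 11020, 12266 and 13536 CPM (counts per 1000000, scaled by TMM as all levels below) in day 21 WT libraries, against 19728, 19450, 14036 and 18417 CPM in naive WT libraries. The day 21 sums all lay below the naive ones (exact two-sided permutation test, p = 0.0571 before and 0.0914 after adjustment over 16 measures). In bulk RNA, fewer cells of a type and less RNA per cell cannot be told apart. Tmem119, a surface protein of resident microglia, had 1222, 1404 and 1523 CPM in the day 21 WT libraries, against 1869.8, 1858, 1493 and 1946 CPM in the naive WT libraries. The groups overlapped and the change missed the threshold of an adjusted p under 0.05 (values are the log2 fold change, log2FC, of day 21 over naive, its standard error, SE, and the p of edgeR's quasi-likelihood test: log2FC -0.37, SE 0.27, edgeR adjusted p = 0.351). The naive sort also held granulocyte RNA: 13 neutrophil markers other than Csf3r summed to 29.6, 7.61 and 26.4 CPM in day 21 WT libraries, against 1538, 7647, 16432 and 8928 CPM in naive WT libraries, although the gate named Ly6G- cells. This level differs between the groups in every library. Most gene groups below are therefore also given with a neutrophil covariate, where it moves their count by over 1.5 times. The covariate is the log2 summed level of all 14 neutrophil markers. At day 21 most of that sum is Csf3r (689, 718 and 673 CPM), which is higher than in naive WT. The covariate thus differs less between the groups than the 13 other markers do. It cannot be read as a full adjustment for granulocyte RNA, and its part in the other differences was not tested. Atg7, the gene deleted in the knockout groups of the series, was intact by genotype in both WT groups and had 19.8, 25.3 and 24.6 CPM in the day 21 WT libraries, against 26.6, 27.0, 40.1 and 32.8 CPM in the naive WT libraries (log2FC -0.44, SE 0.33, edgeR adjusted p = 0.351). Its log2FC with the neutrophil covariate was 0.48.

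**Figure D1:**
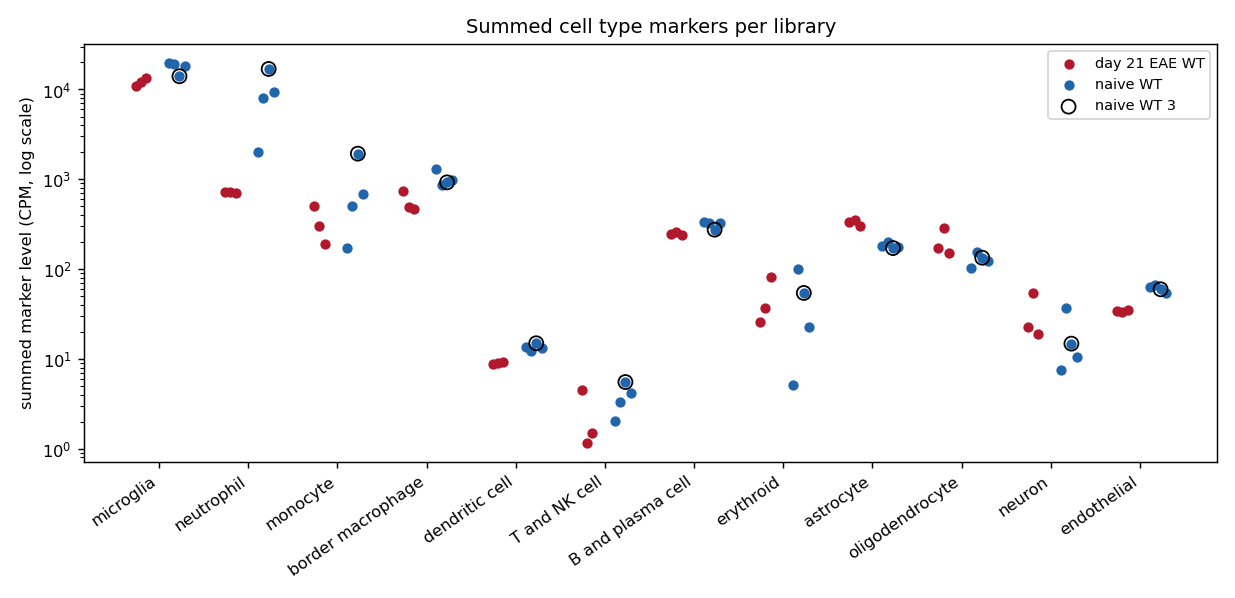
Summed CPM (log axis) of the marker genes of each cell type (x axis), with 1 point per library for 3 day 21 WT (red) and 4 naive WT libraries (blue, ring for naive WT library 3). Neutrophil markers, Csf3r included, sum to 700 to 725 CPM in day 21 WT and to 2021 to 16917 CPM in naive WT, while astrocyte sums are higher in every day 21 library.

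Of 13880 genes tested with edgeR's quasi-likelihood test across all 30 libraries, 2989 (21.5%) were called, meaning that they differed at an adjusted p under 0.05 between day 21 and naive WT microglia. Of these, 1320 (9.51%) were higher and 1669 (12%) were lower at day 21. These shares are the background for the list counts below. A log2FC above 1 was reached by 460 called genes (3.31%), and one below -1 by 544 (3.92%). In 2477 genes (17.8%) every day 21 library lay above every naive library, and in 2722 (19.6%) every one lay below. The median log2FC over all genes was -0.01, so the changes below are close to changes against the typical gene. Counts rested on the libraries: 1933 genes were called without day 21 WT library 1 and 1727 without library 2, and the lower calls numbered 1015, 842 and 1019 without day 21 WT library 1, day 21 WT library 2 or naive WT library 2. With the neutrophil marker level as a covariate 1246 genes were higher and 1356 lower, of which 771 and 782 were shared with the calls above.

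Interferon response genes rose. Of 33 genes of the type I interferon response, 28 rose, none fell, and the median log2FC was 1.63, against -0.01 over all genes and a background of 9.51% called higher. No member of this list, or of the GTPase, immunoproteasome, MHC class II, NF-kappaB and lysosome lists below, was lower at an unadjusted p under 0.05 or by DESeq2. The count was 27 without naive WT library 3 and 30 with the neutrophil covariate. Ifit3, an antiviral protein with tetratricopeptide repeats, had 42.7, 47.4 and 43.9 CPM in the day 21 WT libraries, against 4.999, 7.97, 10.9 and 6.99 CPM in the naive WT libraries. The lowest day 21 value was several times the highest naive value (log2FC 2.53, SE 0.21, edgeR adjusted p = 1.97e-09). Ifit2, of the same family, had 157.9, 145 and 145 CPM in the day 21 WT libraries, against 13.5, 11.02, 36.0 and 12.4 CPM in the naive WT libraries, again without overlap and with naive WT library 3 the highest of its group (log2FC 3.01, SE 0.30, edgeR adjusted p = 1.77e-07). Mx1, an interferon-induced gene of the dynamin-like GTPase family, had 71.0, 76.6 and 73.7 CPM in the day 21 WT libraries, against 11.5, 12.2, 16.3 and 11.8 CPM in the naive WT libraries (log2FC 2.51, SE 0.22, edgeR adjusted p = 8.88e-09). Herc6, the mouse E3 ligase that attaches the ubiquitin-like protein Isg15 to targets, had 87.9, 83.9 and 85.2 CPM in the day 21 WT libraries, against 42.5, 33.8, 38.9 and 39.2 CPM in the naive WT libraries (log2FC 1.15, SE 0.11, edgeR adjusted p = 4.23e-08). The day 21 libraries were close together in all 4 genes, and each was above every naive library. Reads of Ifit3 can be split with its near-identical copy Ifit3b. The 5 members that missed the threshold were Isg20, Oas3, Ifitm3, Cmpk2 and Samd9l.

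Upstream of these genes, 5 of 13 interferon ligands, receptors and proximal signalling genes rose and 1 fell (median log2FC 0.02). Ifnb1, interferon-beta itself, had 12.2, 15.2 and 12.7 CPM in the day 21 WT libraries, against 0, 0, 2.24 and 0.713 CPM in the naive WT libraries. It was at 0 in 2 of the naive libraries and above 12 CPM in each day 21 library (log2FC 4.05, SE 0.59, edgeR adjusted p = 2.33e-05). Tyk2, a kinase bound to the type I interferon receptor, had 101.7, 97.1 and 87.6 CPM in the day 21 WT libraries, against 63.8, 56.1, 69.5 and 75.4 CPM in the naive WT libraries (log2FC 0.52, SE 0.10, edgeR adjusted p = 3.49e-04), and Jak1, its partner kinase, had 327.9, 294 and 326.5 CPM in the day 21 WT libraries, against 429, 427, 376 and 399.6 CPM in the naive WT libraries (log2FC -0.37, SE 0.09, edgeR adjusted p = 0.00513). Both genes separated the groups, in opposite directions. Socs3, a feedback inhibitor of cytokine receptors, had 167.8, 196 and 186 CPM in the day 21 WT libraries, against 126.6, 45.5, 90.3 and 79.4 CPM in the naive WT libraries (log2FC 1.09, SE 0.27, edgeR adjusted p = 0.00561). Its call was lost with the neutrophil covariate, under which 2 members of this list were higher and 2 lower, and 3 were higher without day 21 WT library 1. A second member was lower without naive WT library 3, where the log2FC of Ifnb1 was 5.53. The other 2 higher members, Ifnar1 and Socs1, had log2FC 0.29 and 1.27 and also lost their calls with that covariate.

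Among 15 STAT and IRF transcription factors, 4 rose, among them Stat2, Irf7 and Irf1, and 5 fell (median log2FC 0.14). Stat2, a subunit of the complex that binds interferon-stimulated response elements, had 196, 167.9 and 167 CPM in the day 21 WT libraries, against 45.3, 46.2, 67.7 and 46.8 CPM in the naive WT libraries (log2FC 1.78, SE 0.16, edgeR adjusted p = 6.39e-09). Irf7, which amplifies interferon production, had 60.5, 72.2 and 66.6 CPM in the day 21 WT libraries, against 10.4, 11.7, 23.03 and 14.1 CPM in the naive WT libraries (log2FC 2.15, SE 0.26, edgeR adjusted p = 2.59e-06). Every day 21 library exceeded every naive library for Stat2 and Irf7, with naive WT library 3 the highest naive library each time. Irf1, a factor that interferon-gamma induces early, had 174, 168.4 and 177.1 CPM in the day 21 WT libraries, against 72.3, 69.0, 80.8 and 67.6 CPM in the naive WT libraries (log2FC 1.26, SE 0.12, edgeR adjusted p = 1.89e-08). The 5 that fell were Irf2, Irf4, Stat5b, Stat6 and Stat4, the last with 3 counts over the day 21 libraries and 31.0-fold (95% counting interval 10.3 to 153) lower. Their number was 3 without day 21 WT library 1, day 21 WT library 2 or naive WT library 2, and 3 with the neutrophil covariate, under which Stat4, Stat5b and Irf2 lost their calls and Irf5 gained one.

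**Figure D2:**
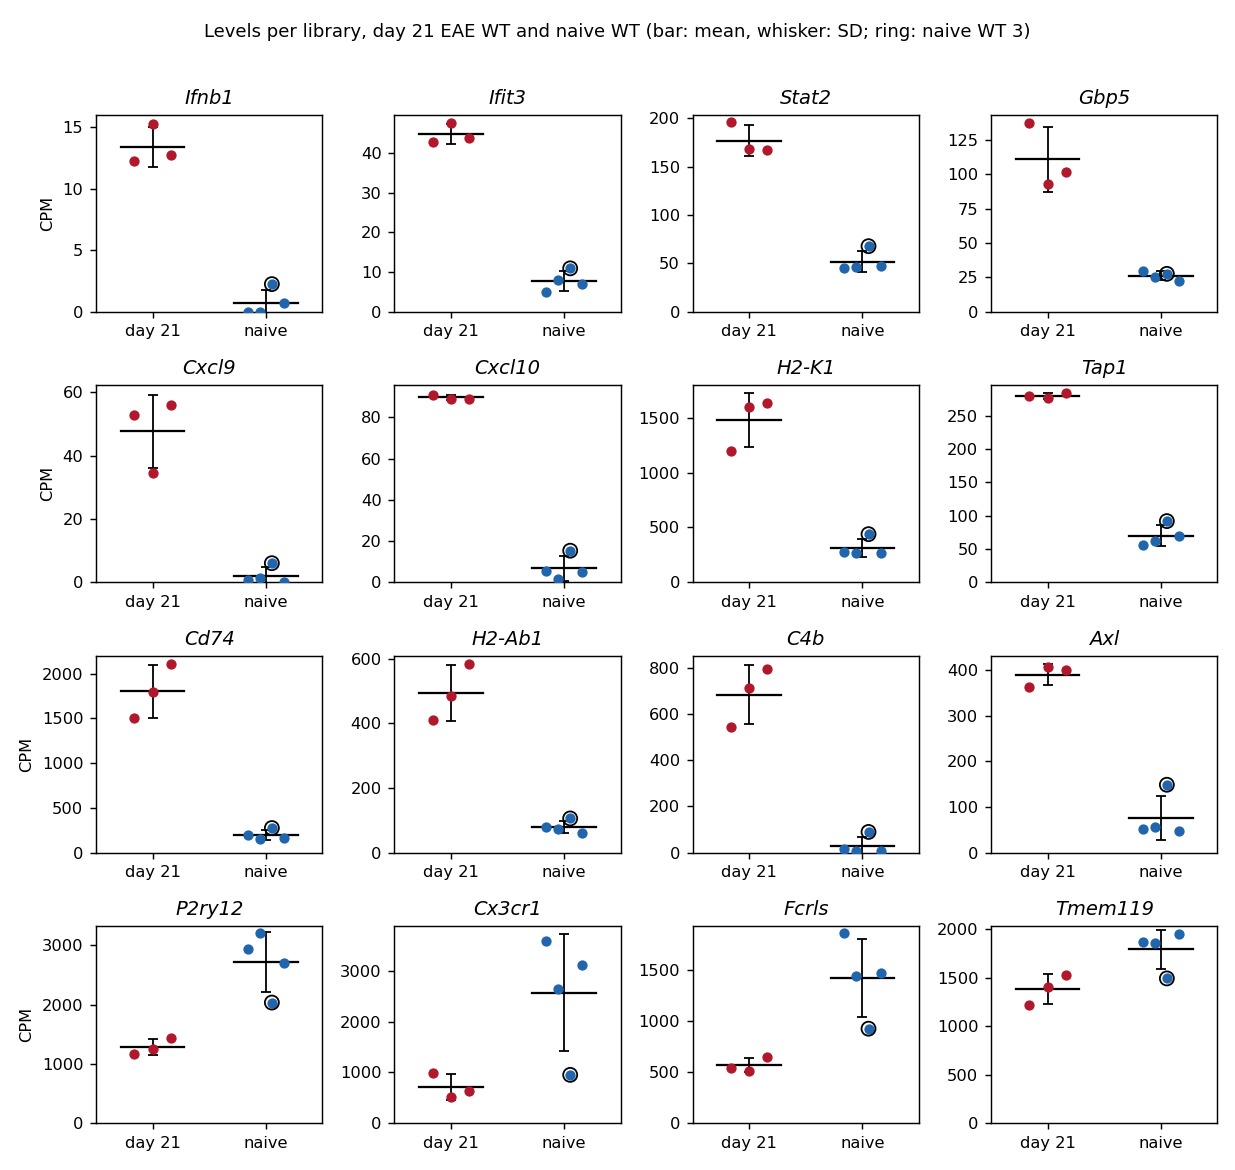
CPM (linear axis from 0, its own for each panel) of 16 genes in each library, with 3 day 21 WT points (red) left of 4 naive WT points (blue, ring for naive WT library 3), a bar at the mean and a whisker of 1 SD. All day 21 points lie above the naive points in the first 12 panels, while P2ry12 and Fcrls lie lower at day 21 and Cx3cr1 and Tmem119 overlap.

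The guanylate-binding proteins (Gbp) and immunity-related GTPases (Irg), which attack vacuoles that shelter microbes, rose as a group. Of 16 tested, 14 rose and none fell, with a median log2FC of 2.78, the highest of the process lists. Gbp10 and Gbp11 were not tested for low counts, and Irgm2 and Ifi47 missed the threshold. Iigp1 had 81.9, 43.8 and 50.8 CPM in the day 21 WT libraries, against 1.18, 2.11, 5.08 and 1.14 CPM in the naive WT libraries, far apart in every pair of libraries (log2FC 4.61, SE 0.42, edgeR adjusted p = 4.64e-08). Gbp5, which assists inflammasome assembly, had 137, 93.1 and 101.8 CPM in the day 21 WT libraries, against 29.7, 25.1, 27.5 and 22.1 CPM in the naive WT libraries (log2FC 2.08, SE 0.19, edgeR adjusted p = 1.47e-08). Gbp3 had 95.5, 84.5 and 87.6 CPM in the day 21 WT libraries, against 32.8, 37.998, 28.6 and 30.2 CPM in the naive WT libraries (log2FC 1.47, SE 0.12, edgeR adjusted p = 1.97e-09). No day 21 library overlapped a naive one in these 3 genes. Irgm1, a regulator of the other Irg proteins, had 124.1, 97.7 and 117 CPM in the day 21 WT libraries, against 43.1, 41.3, 45.9 and 39.3 CPM in the naive WT libraries. Its fold change was below the list's median, with naive libraries close together (log2FC 1.41, SE 0.12, edgeR adjusted p = 1.97e-09). Gbp2b had 5.53, 4.39 and 6.08 CPM in the day 21 WT libraries, against 0.147, 0, 0 and 0.570 CPM in the naive WT libraries (log2FC 4.63, SE 0.79, edgeR adjusted p = 1.40e-04), and Tgtp2 had 19.9, 16.7 and 15.7 CPM in the day 21 WT libraries, against 0.882, 0.235, 1.94 and 0.285 CPM in the naive WT libraries (log2FC 4.28, SE 0.44, edgeR adjusted p = 1.05e-07). Without naive WT library 3 the log2FC was 5.37 for Iigp1 and 5.09 for Tgtp2, and without naive WT library 4 it was 6.18 for Gbp2b. Gbp genes, and Tgtp1 with Tgtp2, are near-identical copies between which reads can be split, so the value of a single copy is uncertain.

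Promoters of 5 of the called genes are shown because genes of these lists rose together and because they hold the letters of an interferon-stimulated response element (ISRE, GAAANNGAAA) or of a gamma-activated sequence (GAS, TTCNNNGAA). Both strands were searched, and N stands for any base. Of 23 named and called genes of the interferon, GTPase, MHC class I, immunoproteasome and chemokine lists that had a promoter in the table, 12 held a match and 11 did not. The 5 with the lowest adjusted p among the 12 were taken. Each sequence runs 5′ to 3′ on the gene's strand, from 250 bases before the start to 50 bases after it, from RefSeq on GRCm38.p6. Capitals mark the motif matches.
The Ifit3 promoter (+ strand, chr19:34583279-34583578) holds ISRE letters that begin at bases 95 and 129 of the 300 shown.
Ifit3: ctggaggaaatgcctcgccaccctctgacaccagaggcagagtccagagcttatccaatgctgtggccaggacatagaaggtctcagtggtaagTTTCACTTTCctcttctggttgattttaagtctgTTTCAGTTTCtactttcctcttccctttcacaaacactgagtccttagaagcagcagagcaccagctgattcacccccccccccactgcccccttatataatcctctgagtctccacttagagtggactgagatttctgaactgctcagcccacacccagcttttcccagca
The Irgm1 promoter (- strand, chr11:48871371-48871670) holds a pair of overlapping ISRE matches that begin 30 and 24 bases before the start.
Irgm1: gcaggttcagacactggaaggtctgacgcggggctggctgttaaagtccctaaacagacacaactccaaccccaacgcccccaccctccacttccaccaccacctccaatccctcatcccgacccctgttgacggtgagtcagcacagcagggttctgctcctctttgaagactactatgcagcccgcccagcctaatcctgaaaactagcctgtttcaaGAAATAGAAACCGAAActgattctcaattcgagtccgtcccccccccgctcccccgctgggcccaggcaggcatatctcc
The Gbp3 promoter (+ strand, chr3:142559794-142560093, 1 of 2 starts listed) also holds an overlapping pair, which begins 45 and 39 bases before the start.
Gbp3: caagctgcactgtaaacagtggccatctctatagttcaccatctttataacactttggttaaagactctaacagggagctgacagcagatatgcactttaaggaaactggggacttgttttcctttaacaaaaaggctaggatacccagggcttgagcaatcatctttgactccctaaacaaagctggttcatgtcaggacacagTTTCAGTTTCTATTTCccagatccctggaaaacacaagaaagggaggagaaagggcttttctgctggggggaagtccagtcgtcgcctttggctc
The Gbp5 promoter (+ strand, chr3:142496684-142496983) holds GAS letters 245 and 52 bases and ISRE letters 165 bases before the start.
Gbp5: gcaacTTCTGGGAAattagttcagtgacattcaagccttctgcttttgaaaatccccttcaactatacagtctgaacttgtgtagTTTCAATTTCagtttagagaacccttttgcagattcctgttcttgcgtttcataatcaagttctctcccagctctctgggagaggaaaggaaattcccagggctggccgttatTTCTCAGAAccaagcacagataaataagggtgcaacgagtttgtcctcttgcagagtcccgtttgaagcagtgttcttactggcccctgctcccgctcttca
The H2-M3 promoter (+ strand, chr17:37269984-37270283), of an MHC class I gene described below, holds only GAS letters, 209 bases before the start.
H2-M3: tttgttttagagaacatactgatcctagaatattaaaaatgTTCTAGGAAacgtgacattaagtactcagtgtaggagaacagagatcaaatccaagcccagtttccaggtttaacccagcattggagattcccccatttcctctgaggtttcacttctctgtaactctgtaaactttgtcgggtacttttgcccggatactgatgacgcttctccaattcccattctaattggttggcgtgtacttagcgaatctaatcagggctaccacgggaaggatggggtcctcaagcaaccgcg

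ISRE letters were in 3.44% and GAS letters in 8.30% of all 32851 promoters of the same length, counted per promoter. In the sets below a gene counts if any of its promoters held a match. By that count, ISRE letters were in 4.07% and GAS letters in 8.39% of the tested genes with a promoter. Among such genes that were not called, the shares were 3.52% and 8.25%. Among the genes called higher at day 21, 976 of 1320 matched a promoter, and 8.81% of those held ISRE letters and 10.7% GAS letters. Among the genes called lower, 1275 of 1669 matched, with 3.76% and 7.53%. Of the matched members of the type I interferon list 14 of 23 held ISRE letters, as did 10 of 11 of the GTPases, 4 of 15 MHC class I genes and 0 of 18 homeostatic microglia genes. The same letters were in 1 of 5 immunoproteasome, 2 of 12 chemokine and 1 of 11 MHC class II genes. GAS letters were in 6 of 23 interferon, 6 of 11 GTPase, 1 of 15 MHC class I and 4 of 18 homeostatic genes. They were also in 1 of 5 immunoproteasome, 1 of 12 chemokine and 1 of 11 MHC class II genes. A match describes the letters in the window and is not evidence of a bound site, and neighbouring Gbp genes share sequence.

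Antigen presentation by MHC class I rose. Of 18 tested members 12 rose and 1 fell (median log2FC 1.38), and without naive WT library 3 the numbers were 13 and 2. The 1 lower call was lost without day 21 WT library 1 or 2 or naive WT library 1 or 2. Under the neutrophil covariate 11 members were higher and 3 lower, with Calr and Pdia3, chaperones of the endoplasmic reticulum, added to the lower ones. H2-K1, a classical class I heavy chain, had 1199.6, 1599 and 1639.9 CPM in the day 21 WT libraries, against 274, 266, 438 and 268 CPM in the naive WT libraries (log2FC 2.25, SE 0.19, edgeR adjusted p = 1.97e-09). H2-D1, the other classical chain, had 1246, 1766 and 1805 CPM in the day 21 WT libraries, against 285, 318, 571 and 342 CPM in the naive WT libraries (log2FC 2.08, SE 0.21, edgeR adjusted p = 8.27e-08). B2m, the light chain all of them share, had 2141, 2583 and 2379 CPM in the day 21 WT libraries, against 1106, 1355, 1254 and 1196 CPM in the naive WT libraries (log2FC 0.95, SE 0.18, edgeR adjusted p = 4.53e-04). These 3 genes were among the 8 with the largest difference of mean CPM among called genes whose groups did not overlap and that were higher at day 21. Tap1, a subunit of the transporter that carries peptides into the endoplasmic reticulum, had 280.2, 276 and 285 CPM in the day 21 WT libraries, against 56.3, 61.9, 91.8 and 68.9 CPM in the naive WT libraries, with the 3 day 21 libraries nearly equal (log2FC 2.01, SE 0.15, edgeR adjusted p = 9.45e-10). H2-M3, a nonclassical chain that presents N-formylated peptides, had 71.3, 100.7 and 85.5 CPM in the day 21 WT libraries, against 23.4, 25.1, 34.8 and 28.8 CPM in the naive WT libraries (log2FC 1.61, SE 0.15, edgeR adjusted p = 2.37e-08). H2-Q4, H2-Q6 and H2-Q7 were also called, with log2FC 2.78, 4.29 and 4.28, and without naive WT library 3 it was 5.25 for H2-Q6 and 5.30 for H2-Q7; reads can be split between these near-identical copies and the H2-D1 and H2-K1 genes. Of the 5 immunoproteasome genes, which cut the peptides, Psmb8, Psmb9 and Psme1 rose with log2FC 0.53, 1.43 and 0.55. Psmb9 had 41.7, 51.5 and 47.3 CPM in the day 21 WT libraries, against 14.8, 13.6, 25.9 and 14.97 CPM in the naive WT libraries (log2FC 1.43, SE 0.18, edgeR adjusted p = 1.63e-06), without overlap.

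The MHC class II list rose in 9 of 13 members and fell in none (median log2FC 0.70), and 6 rose with the neutrophil covariate. Cd74, the invariant chain that guides class II molecules through the cell, had 1507, 1796 and 2102 CPM in the day 21 WT libraries, against 198, 152.5, 273 and 158.4 CPM in the naive WT libraries. Among called genes without overlap its difference of mean CPM came after that of the nuclear RNA Malat1 alone (log2FC 3.20, SE 0.51, edgeR adjusted p = 1.18e-04). H2-Ab1, a class II beta chain, had 410.5, 485 and 584 CPM in the day 21 WT libraries, against 79.1, 71.8, 106 and 59.3 CPM in the naive WT libraries (log2FC 2.64, SE 0.49, edgeR adjusted p = 5.65e-04). H2-Aa, its alpha partner, had 280.2, 316.9 and 377 CPM in the day 21 WT libraries, against 52.3, 41.5, 65.8 and 37.9 CPM in the naive WT libraries (log2FC 2.71, SE 0.53, edgeR adjusted p = 9.44e-04), and H2-Eb1 had 250.03, 303.4 and 381 CPM in the day 21 WT libraries, against 58.8, 44.6, 55.5 and 41.6 CPM in the naive WT libraries (log2FC 2.63, SE 0.50, edgeR adjusted p = 7.49e-04). The groups did not overlap in any of these 4 genes. Of 11 costimulation and checkpoint ligands 4 rose and 2 fell. Cd274, which encodes the checkpoint ligand PD-L1, had 95.1, 70.4 and 74.1 CPM in the day 21 WT libraries, against 12.5, 13.4, 29.2 and 15.8 CPM in the naive WT libraries (log2FC 2.16, SE 0.28, edgeR adjusted p = 8.00e-06). Cd40, the receptor through which T cells activate antigen-presenting cells, had 5.69, 6.003 and 7.20 CPM in the day 21 WT libraries, against 0.588, 0.469, 1.94 and 0.428 CPM in the naive WT libraries (log2FC 2.82, SE 0.58, edgeR adjusted p = 0.00114). Neither gene overlapped between the groups. The log2FC of Cd40 was 3.62 without naive WT library 3. The neutrophil covariate gave 3.88 for Cd40, 2.81 for Cd274, 3.27 for H2-Ab1 and 3.32 for H2-Aa. Icosl and Cd276, also of this list, had log2FC 0.67 and -1.39 (edgeR adjusted p = 2.44e-04 and 4.72e-04). The number of lower members was 1 without day 21 WT library 2 or 3 or naive WT library 2 or 4.

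Chemokines rose in 11 of 17 members, namely Ccl2, Ccl3, Ccl4, Ccl5, Ccl7, Ccl12, Cxcl9, Cxcl10, Cxcl11, Cxcl13 and Cxcl16, and fell in Ccl6 and Ccl9 (median log2FC 1.28). Cxcl9 and Cxcl10 are ligands of Cxcr3, the receptor of activated T cells. Cxcl10 had 91.1, 88.9 and 89.1 CPM in the day 21 WT libraries, against 5.29, 1.41, 15.3 and 4.70 CPM in the naive WT libraries (log2FC 3.69, SE 0.36, edgeR adjusted p = 1.79e-07). Cxcl9 had 52.8, 34.6 and 55.9 CPM in the day 21 WT libraries, against 0.588, 1.17, 5.98 and 0.143 CPM in the naive WT libraries, with naive WT library 3 again the highest naive library (log2FC 4.56, SE 0.67, edgeR adjusted p = 5.04e-05). Cxcl11, the third ligand, had 2 counts over the 4 naive libraries and was 18.4-fold (95% counting interval 4.74 to 158.3) higher at day 21. For Cxcl9 and Cxcl10 each day 21 library lay above each naive library. Ccl12, a ligand of Ccr2 on monocytes, had 126.3, 117 and 129 CPM in the day 21 WT libraries, against 27.1, 18.5, 28.6 and 19.0 CPM in the naive WT libraries (log2FC 2.40, SE 0.23, edgeR adjusted p = 4.83e-08). Ccl2, a ligand of the same receptor, had 66.7, 61.1 and 48.7 CPM in the day 21 WT libraries, against 22.6, 7.04, 18.5 and 11.7 CPM in the naive WT libraries (log2FC 1.94, SE 0.26, edgeR adjusted p = 1.03e-05). Cxcl13, which draws B cells, had 10.2, 16.4 and 17.5 CPM in the day 21 WT libraries, against 0.294, 0.235, 2.54 and 0 CPM in the naive WT libraries (log2FC 4.18, SE 0.84, edgeR adjusted p = 0.00116). The groups were also apart for these 3 chemokines. Without naive WT library 3 the log2FC was 6.37 for Cxcl9, 4.47 for Cxcl10 and 6.32 for Cxcl13. The neutrophil covariate gave 5.34 for Cxcl9 and 5.32 for Cxcl13, and under it Ccl3 and Ccl4 lost their calls. Ccl6 went the other way, with 53.4, 59.2 and 64.8 CPM in the day 21 WT libraries, against 112.2, 173.3, 165.9 and 152.2 CPM in the naive WT libraries (log2FC -1.35, SE 0.20, edgeR adjusted p = 2.15e-05).

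Cytokine genes were mixed. Of 14 tested, Il1a, Il27, Tnf, Csf1 and Il12b rose and Il16 and Tgfb1 fell (median log2FC 0.14). The shares over all genes were 9.51% higher and 12% lower. The higher number was 3 without day 21 WT library 1, day 21 WT library 2 or naive WT library 2, and the lower number was 1 without day 21 WT library 2 or 3 or naive WT library 2. Tnf had 79.2, 73.9 and 60.03 CPM in the day 21 WT libraries, against 33.1, 12.2, 39.8 and 21.4 CPM in the naive WT libraries (log2FC 1.39, SE 0.28, edgeR adjusted p = 9.92e-04). Csf1, a growth factor of microglia that is also made by them, had 155, 159 and 151 CPM in the day 21 WT libraries, against 37.0, 40.1, 88.7 and 40.9 CPM in the naive WT libraries (log2FC 1.58, SE 0.24, edgeR adjusted p = 6.72e-05). Il12b, the shared subunit of interleukins 12 and 23, had 3.52, 2.34 and 2.43 CPM in the day 21 WT libraries, against 0, 0, 0.748 and 0 CPM in the naive WT libraries (log2FC 3.67, SE 0.81, edgeR adjusted p = 0.00196), and Il12rb1, a receptor subunit for the same cytokines, had 9.04, 4.98 and 5.14 CPM in the day 21 WT libraries, against 0, 0, 0.748 and 0.428 CPM in the naive WT libraries (log2FC 4.23, SE 0.71, edgeR adjusted p = 1.41e-04). All 4 genes were higher in each day 21 library than in any naive library. Without naive WT library 3 the log2FC was 7.26 for Il12b and 5.12 for Il12rb1, and with the neutrophil covariate it was 5.14 for Il12b, while Il1a and Il27 lost their calls. Il16 had 199, 196 and 209 CPM in the day 21 WT libraries, against 316.8, 284, 255 and 304 CPM in the naive WT libraries (log2FC -0.53, SE 0.10, edgeR adjusted p = 4.53e-04).

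Of 18 Toll-like receptors and adaptors, Irak1, Tlr1 and Tlr2 rose and Tlr5, Ly96, Cd14 and Myd88 fell, with a median log2FC of 0.04. Over all genes 9.51% were called higher and 12% lower. The lower number was 2 without day 21 WT library 2 or naive WT library 2. Tlr2, a receptor for bacterial lipoproteins, had 191, 218 and 207.9 CPM in the day 21 WT libraries, against 101.3, 100.9, 133 and 106 CPM in the naive WT libraries (log2FC 0.90, SE 0.14, edgeR adjusted p = 4.89e-05). Tlr5, the flagellin receptor, had 11.4, 5.42 and 9.82 CPM in the day 21 WT libraries, against 38.5, 23.2, 18.7 and 28.8 CPM in the naive WT libraries (log2FC -1.62, SE 0.23, edgeR adjusted p = 8.57e-06). The groups were apart for both receptors, in opposite directions. Irak1 and Myd88 lost their calls with the neutrophil covariate. In the NF-kappaB pathway 5 of 17 genes rose and none fell (median log2FC 0.25). These were Nfkb2 and Relb, subunits of the noncanonical dimer, the inhibitors Nfkbia and Tnfaip3, and Bcl3. Fitted with the neutrophil covariate, 8 were higher, as Nfkbia lost its call and Tnfaip2, Traf1, Birc3 and Ikbke gained one. Relb had 34.8, 39.4 and 38.6 CPM in the day 21 WT libraries, against 21.2, 21.1, 17.5 and 17.5 CPM in the naive WT libraries (log2FC 0.96, SE 0.16, edgeR adjusted p = 8.32e-05). Of 13 inflammasome and pyroptosis genes 5 rose, among them Casp4, a caspase that senses cytosolic lipopolysaccharide, and its substrate Gsdmd. Casp8 fell, a call that was lost without naive WT library 2, and a second member was lower without day 21 WT library 1. Gsdmd had 153, 158.4 and 156.1 CPM in the day 21 WT libraries, against 102.03, 89.6, 118 and 96.7 CPM in the naive WT libraries (log2FC 0.61, SE 0.11, edgeR adjusted p = 2.65e-04), and Casp4 had 38.7, 39.4 and 39.8 CPM in the day 21 WT libraries, against 20.4, 15.01, 20.5 and 15.8 CPM in the naive WT libraries (log2FC 1.13, SE 0.18, edgeR adjusted p = 5.09e-05). Il18bp, a secreted inhibitor of interleukin 18, had 23.4, 16.1 and 14.7 CPM in the day 21 WT libraries, against 3.68, 2.11, 6.28 and 3.85 CPM in the naive WT libraries (log2FC 2.14, SE 0.31, edgeR adjusted p = 2.33e-05). Each of these 3 genes was higher in every day 21 library than in any naive one.

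Complement split between components. C4b, C2, Cfb, Serping1 and Itgax rose among 17 genes, and 4 fell, among them Cd55, Cfp and C5ar1 (median log2FC 0.03). The background was 9.51% of all genes called higher and 12% called lower. C4b, a component of the classical pathway that opsonizes targets, had 542, 714 and 792 CPM in the day 21 WT libraries, against 13.5, 7.04, 89.0 and 7.27 CPM in the naive WT libraries. The naive value of library 3 was well above the other 3, and the day 21 values were above all of them (log2FC 4.52, SE 0.72, edgeR adjusted p = 1.40e-04). Its log2FC was 6.18 without naive WT library 3. Cfb, the serine protease of the alternative pathway, had 3.01, 2.49 and 2.34 CPM in the day 21 WT libraries, against 0.147, 0, 0.299 and 0.285 CPM in the naive WT libraries (log2FC 3.59, SE 0.68, edgeR adjusted p = 4.08e-04), with a log2FC of 4.68 under the neutrophil covariate. C1qa, C1qb and C1qc, the recognition subunits that microglia make in abundance, had log2FC 0.13, 0.02 and 0.01 and missed the threshold. The number that fell was 2 without day 21 WT library 2 or naive WT library 3, 1 without day 21 WT library 3 and 2 with the neutrophil covariate, under which Cd55, Cfp and C5ar1 lost their calls, as did C2. Among 6 Fc receptors Fcgr4 and Fcgr2b rose. None was lower by edgeR or DESeq2, with 2 lower at an unadjusted p under 0.05, 1 called lower without naive WT library 3 and 2 with the neutrophil covariate. Fcgr4, an activating receptor for IgG, had 61.8, 64.6 and 69.7 CPM in the day 21 WT libraries, against 10.3, 14.1, 28.4 and 12.97 CPM in the naive WT libraries (log2FC 1.99, SE 0.25, edgeR adjusted p = 3.34e-06), while the inhibitory Fcgr2b had log2FC 0.51 and lost its call without day 21 WT library 3 or with the neutrophil covariate.

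**Figure D3:**
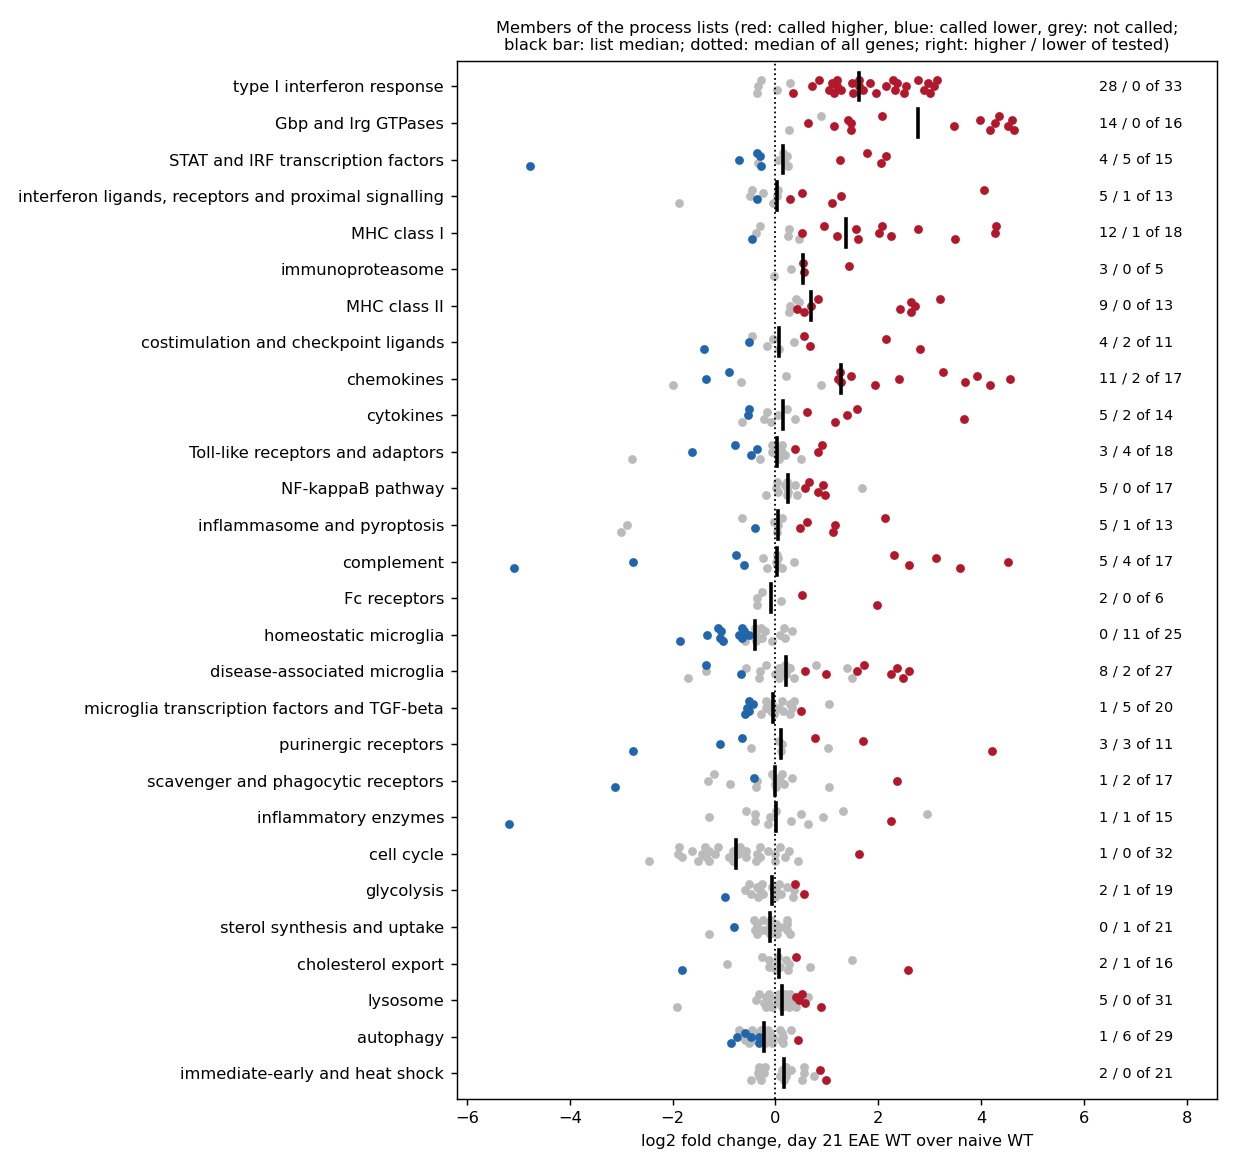
Log2 fold change, day 21 WT over naive WT, of each tested member (1 point) of the gene lists, by list (y axis), with red for called higher, blue for called lower, grey for not called, a bar at the list's median and a dotted line at the median of all genes. The GTPase, type I interferon, MHC class I and chemokine lists have medians between 1.28 and 2.78, and the other process lists lie nearer 0.

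Part of the homeostatic microglia genes fell, in a number that depended on single libraries. Of 25 tested, 11 fell and none rose by edgeR or DESeq2, with 1 higher at an unadjusted p under 0.05 (median log2FC -0.40), against 12% of all genes called lower. The number was 6 without day 21 WT library 1, 5 without day 21 WT library 2, 6 without naive WT library 2, 12 without naive WT library 3, and 21 with the neutrophil covariate. P2ry12, the purinergic receptor with which microglia sense ATP and ADP, had 1172, 1242 and 1429 CPM in the day 21 WT libraries, against 2946, 3205, 2033 and 2697 CPM in the naive WT libraries. No day 21 library reached the lowest naive one (log2FC -1.09, SE 0.26, edgeR adjusted p = 0.00415). Cx3cr1, the fractalkine receptor and the gene that carries the Cre, had 988, 503.1 and 631 CPM in the day 21 WT libraries, against 3585, 2652, 948 and 3109 CPM in the naive WT libraries. Naive WT library 3 lay among the day 21 libraries, so the groups overlapped (log2FC -1.86, SE 0.50, edgeR adjusted p = 0.0100), and the call was lost without day 21 WT library 2. Gpr34, a lysophosphatidylserine receptor, had 523, 572 and 699.8 CPM in the day 21 WT libraries, against 1291, 1509, 1047 and 1153 CPM in the naive WT libraries (log2FC -1.06, SE 0.25, edgeR adjusted p = 0.00307). Slc2a5, a fructose transporter, had 172.8, 176 and 204.9 CPM in the day 21 WT libraries, against 408, 447, 269 and 367 CPM in the naive WT libraries (log2FC -1.01, SE 0.23, edgeR adjusted p = 0.00311). Fcrls, an Fc receptor-like scavenger gene of mouse microglia, had 540.1, 513 and 644 CPM in the day 21 WT libraries, against 1867, 1441, 927 and 1473 CPM in the naive WT libraries (log2FC -1.33, SE 0.20, edgeR adjusted p = 3.38e-05). These 3 genes separated the groups. Fitted with the neutrophil covariate, the log2FC was -1.83 for P2ry12, -1.73 for Gpr34 and -1.63 for Slc2a5. The others that fell were Cst3, Sparc, Selplg, P2ry13, Golm1 and Tgfbr1. Among the transcription factors of microglia and their TGF-beta signals 5 of 20 fell, Maf, Spi1, Smad2, Tgfb1 and Tgfbr1, and Runx1 rose, with a second member higher without naive WT library 2 or 3 or with the neutrophil covariate. Spi1, which encodes PU.1, had 197, 188 and 189.7 CPM in the day 21 WT libraries, against 273, 288, 273 and 290.4 CPM in the naive WT libraries (log2FC -0.55, SE 0.10, edgeR adjusted p = 2.03e-04). The lower number was 3 without day 21 WT library 2 or naive WT library 2 and 9 with the neutrophil covariate.

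Of 27 genes named after disease-associated microglia 8 rose, Ctsb, Clec7a, Csf1, Fabp5, Ch25h, Axl, Cst7 and Itgax, and Ccl6 and Ank fell (median log2FC 0.20). The higher number was 11 without naive WT library 3 and 5 without day 21 WT library 2 or 3, and 1 of the 2 lower calls was lost without any day 21 library or naive WT library 2. Axl, a receptor tyrosine kinase that recognizes dying cells, had 364, 407 and 399.9 CPM in the day 21 WT libraries, against 52.3, 56.3, 149 and 46.5 CPM in the naive WT libraries (log2FC 2.36, SE 0.40, edgeR adjusted p = 2.28e-04). Itgax, an integrin chain known as CD11c, had 131.8, 159.6 and 169.98 CPM in the day 21 WT libraries, against 17.5, 22.8, 42.9 and 18.4 CPM in the naive WT libraries (log2FC 2.60, SE 0.36, edgeR adjusted p = 2.22e-05). Ch25h, which makes 25-hydroxycholesterol, had 7.20, 8.93 and 4.58 CPM in the day 21 WT libraries, against 0.735, 0.235, 4.04 and 0.428 CPM in the naive WT libraries (log2FC 2.24, SE 0.56, edgeR adjusted p = 0.00609). All day 21 libraries exceeded all naive libraries in the 3 genes. The log2FC of Ch25h was 3.74 without naive WT library 3, and its call was lost when the 7 libraries were fitted alone. Ctsb lost its call without day 21 WT library 2 or 3 or with the neutrophil covariate. Clec7a and Fabp5 each lost their call without any one of the day 21 libraries or naive WT library 1, 2 or 4. Both calls were also lost with the 7 libraries alone, with the Xist covariate and without a filter. Apoe and Spp1, which are often used to mark this state, had log2FC 1.49 and 1.39 and missed the threshold (edgeR adjusted p = 0.0511 and 0.257). Apoe had 8914, 11847 and 9849 CPM in the day 21 WT libraries, against 2079, 1950.3, 8838 and 1630.4 CPM in the naive WT libraries. Naive WT library 3 lay just below the day 21 libraries and far above the other naive ones. Spp1 had 162.6, 152.1 and 100.5 CPM in the day 21 WT libraries, against 8.67, 6.10, 185 and 8.70 CPM in the naive WT libraries. Without naive WT library 3 both were called, with log2FC 2.44 for Apoe and 4.12 for Spp1 (edgeR adjusted p = 9.71e-04 and 3.96e-04), as was Gpnmb. Trem2, the receptor on which much of this state depends, had 644, 787 and 726 CPM in the day 21 WT libraries, against 650.0, 842, 662 and 737 CPM in the naive WT libraries (log2FC -0.01, SE 0.19, edgeR adjusted p = 0.987).

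**Figure D4:**
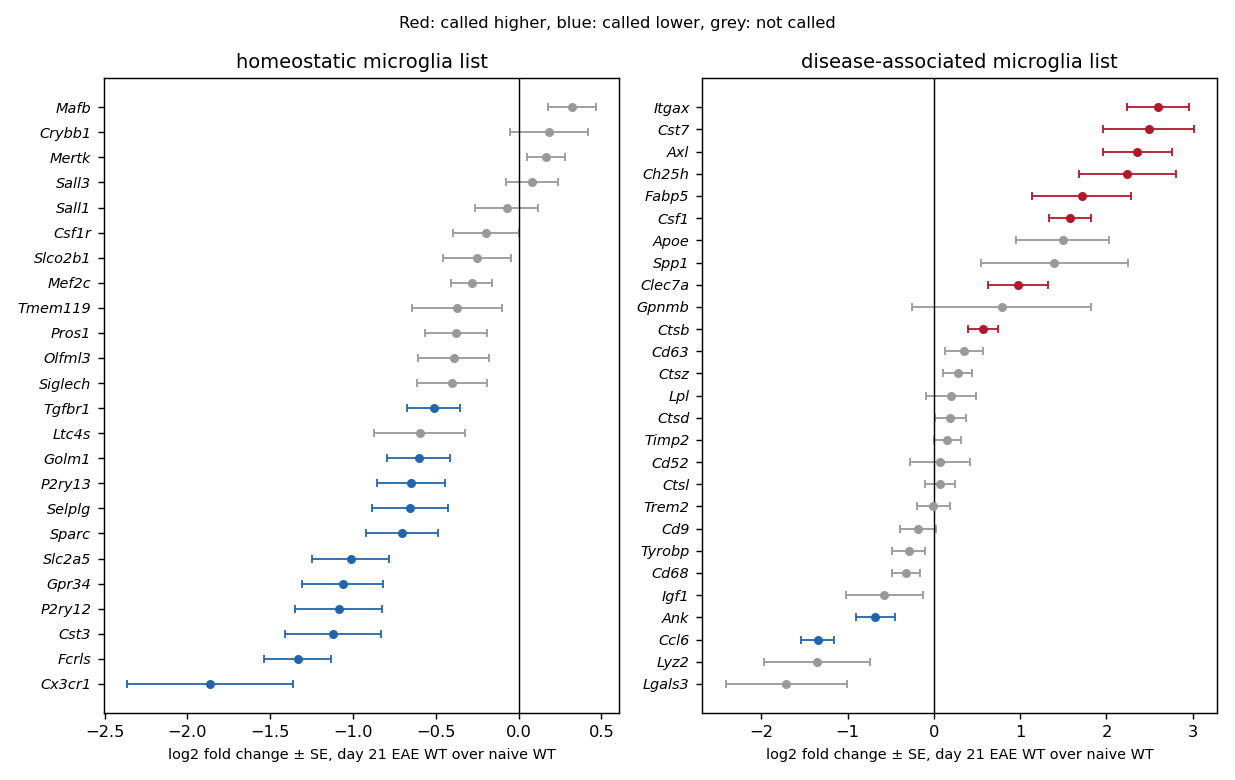
Log2 fold change with its standard error, day 21 WT over naive WT, for the members reported here of the homeostatic and disease-associated microglia lists (1 gene per line), with red for called higher, blue for called lower and grey for not called. The 11 called homeostatic genes lie below 0, and the disease-associated list runs on both sides of 0, with 8 genes called higher and 2 called lower.

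Other groups gave fewer calls, and their counts stand beside 9.51% of all genes called higher and 12% called lower. Of 11 purinergic receptors and enzymes P2rx4, P2ry2 and Adora1 rose and Nt5e, P2ry12 and P2ry13 fell. P2rx4, an ATP-gated channel, had 127.3, 122.8 and 113 CPM in the day 21 WT libraries, against 73.8, 55.6, 85.1 and 70.3 CPM in the naive WT libraries (log2FC 0.76, SE 0.11, edgeR adjusted p = 2.59e-05). Adora1, an adenosine receptor, had 44.2, 68.5 and 70.8 CPM in the day 21 WT libraries, against 1.62, 3.75, 6.88 and 1.14 CPM in the naive WT libraries (log2FC 4.21, SE 0.51, edgeR adjusted p = 4.28e-06), and a log2FC of 4.93 without naive WT library 3. Nt5e lost its call without day 21 WT library 3 or naive WT library 3 or with the neutrophil covariate. Of 17 scavenger and phagocytic receptors Axl rose, and Mrc1 and Gas6, a ligand of Axl, fell. Under the neutrophil covariate 2 were higher and 4 lower, with Olr1 added to the higher and Itgav and Stab1 to the lower ones. Gas6 lost its call without day 21 WT library 1 or 2 or naive WT library 1 or 2, with the 7 libraries alone, with the Xist covariate and without a filter. Mrc1, the mannose receptor, had 29.5, 10.5 and 10.8 CPM in the day 21 WT libraries, against 223, 161, 67.2 and 122.2 CPM in the naive WT libraries (log2FC -3.11, SE 0.71, edgeR adjusted p = 0.00343); it is also a gene of macrophages at the borders of the brain, 8 of whose 10 other markers fell too. Its log2FC was -3.75 without day 21 WT library 1 and -2.30 with the neutrophil covariate. Of 15 inflammatory enzymes Ch25h rose. Arg2, mitochondrial arginase, had 2 counts over the day 21 libraries and was 44.6-fold (95% counting interval 12.01 to 374) lower than in naive WT. The groups were apart for the genes with library values here. The Arg2 call was lost with the neutrophil covariate, under which 5 of the 15 were higher and none lower. A second member was lower without naive WT library 1.

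Autophagy genes, the pathway that Atg7 serves, gave 6 lower and 1 higher call among 29 (median log2FC -0.22). Of all genes, 12% were called lower and 9.51% higher. The 6 were Atg3, Gabarapl1, Tax1bp1, Atg12, Pik3c3 and Calcoco1. Atg3, the enzyme that works after Atg7 in LC3 lipidation, had 39.7, 42.8 and 44.9 CPM in the day 21 WT libraries, against 58.7, 94.3, 87.2 and 68.7 CPM in the naive WT libraries (log2FC -0.86, SE 0.21, edgeR adjusted p = 0.00413). Gabarapl1, of the LC3 family, had 13.4, 11.4 and 12.996 CPM in the day 21 WT libraries, against 16.8, 30.3, 18.5 and 20.2 CPM in the naive WT libraries (log2FC -0.75, SE 0.20, edgeR adjusted p = 0.00662), and Tax1bp1, a cargo receptor, had 127.1, 139.7 and 145.7 CPM in the day 21 WT libraries, against 194, 245, 200.9 and 185 CPM in the naive WT libraries (log2FC -0.58, SE 0.13, edgeR adjusted p = 0.00266). The lower number was 3 without any one of the day 21 libraries and 2 without naive WT library 2, and Atg16l1, the 1 higher call, was lost without any one of 5 libraries. The calls of Atg3, Tax1bp1 and Atg12 were lost with the neutrophil covariate, under which 2 members were higher. Gabarapl1 lost its call without naive WT library 2. Among 31 lysosome genes Ctsc, Grn, Psap, Ctsb and Gla rose and none fell (median log2FC 0.14), against 9.51% of all genes called higher. With the neutrophil covariate 1 was higher and 4 were lower, with a median of -0.06, so the list's direction differed with that term. Psap, the precursor of the saposins that help degrade sphingolipids, had 3207, 3293 and 3621 CPM in the day 21 WT libraries, against 2256, 2517, 2347 and 2355 CPM in the naive WT libraries (log2FC 0.51, SE 0.15, edgeR adjusted p = 0.0163). The higher number was 1 without day 21 WT library 3, 2 without day 21 WT library 2, and 3 without naive WT library 1 or 4.

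Genes of proliferation showed 1 call among 32, Tk1, which was higher and was lost without day 21 WT library 1 or naive WT library 1. None was lower by edgeR, 4 were at an unadjusted p under 0.05 and 1 by DESeq2, and 2 were lower without naive WT library 1. The list's median log2FC was -0.77, and with the neutrophil covariate 16 were higher and none lower, with a median of 1.20; the sign of the median differed with that term. Glycolysis gave 2 higher calls (Pfkfb3 and Pfkl) and 1 lower call (Hk1) among 19, against 9.51% of all genes called higher and 12% lower. Sterol synthesis and uptake gave 1 lower call, Ebp, among 21. Cholesterol export gave Apoc1 and Abca1 higher and Pltp lower among 16, beside the same shares, and 4 higher without naive WT library 3. Apoc1, Abca1, Pltp and Pfkl all lost their calls with the neutrophil covariate, under which 2 other members were higher and 1 lower. Pfkl lost its call without day 21 WT library 1 or 3 or naive WT library 2, Abca1 without day 21 WT library 1 or naive WT library 2, and Pltp without day 21 WT library 2 or 3 or naive WT library 1. Immediate-early and heat shock genes, which rise when cells are dissociated, gave 2 higher calls among 21, Egr2 and Egr3, and both were lost with the neutrophil covariate. Egr3 was also lost without any one of 5 libraries. Hk1 had 28.5, 25.5 and 27.5 CPM in the day 21 WT libraries, against 49.3, 49.3, 60.1 and 56.3 CPM in the naive WT libraries (log2FC -0.99, SE 0.21, edgeR adjusted p = 0.00136) and lost its call with the neutrophil covariate (log2FC -0.32).

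Granulocyte genes had many of the largest falls. Of 14 neutrophil markers 13 fell, with a median log2FC of -8.55. S100a8, a subunit of the cytosolic calprotectin of neutrophils, had 3.35, 1.02 and 3.09 CPM in the day 21 WT libraries, against 165.5, 964, 2449 and 1066 CPM in the naive WT libraries, and its partner S100a9 had 5.19, 1.90 and 9.35 CPM in the day 21 WT libraries, against 372, 2545, 4919 and 2181 CPM in the naive WT libraries. Naive WT library 1 was the lowest of the naive group and still far above every day 21 library (log2FC -8.84, SE 1.82, edgeR adjusted p = 0.00157 for S100a8). Ngp and Ltf, proteins of neutrophil granules, had log2FC -8.61 and -8.57. The neutrophil covariate is made from these genes and at day 21 is mostly Csf3r, so it is not a full adjustment for granulocyte RNA. With it the log2FC was -3.46 for S100a8, -3.20 for Ngp and -3.49 for Ltf, and 11 were lower. For S100a8 it was -8.17 without naive WT library 3. Csf3r, the receptor of granulocyte colony-stimulating factor, was the 1 higher member, with 689, 718 and 673 CPM in day 21 WT libraries, against 483, 402, 485 and 531 CPM in naive WT libraries. Padi4, a neutrophil enzyme that converts arginine to citrulline, had 1 count over the day 21 libraries and was 1209-fold (95% counting interval 217 to 47776) lower. Genes of eosinophils also stood high in naive WT: Prg2, the major basic protein, had 0, 0.586 and 0 CPM in the day 21 WT libraries, against 20.9, 109, 178 and 109 CPM in the naive WT libraries, and Epx, the eosinophil peroxidase, was 956-fold (95% counting interval 171.2 to 37808) lower at day 21. Trem3, Ear2 and Ear1 had no count in the day 21 libraries and were at least 118-fold, at least 101.2-fold and at least 68.6-fold lower, set against a floor of 3 counts over the group; Ear1 and Ear2 are near-identical copies.

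Markers of border macrophages fell in 9 of 11 members (median log2FC -3.87, or -3.77 with Cd209f at its bound). Lyve1, a hyaluronan receptor, had 1.17, 0 and 0 CPM in the day 21 WT libraries, against 16.8, 21.1, 6.73 and 19.2 CPM in the naive WT libraries (log2FC -5.56, SE 0.93, edgeR adjusted p = 1.49e-04), and was at 0 in 2 day 21 libraries. Cd163, the haptoglobin-haemoglobin receptor, had 3.85, 0.293 and 0.281 CPM in the day 21 WT libraries, against 43.1, 30.02, 16.3 and 25.1 CPM in the naive WT libraries (log2FC -4.45, SE 0.77, edgeR adjusted p = 2.93e-04). These values rest on single libraries. Without day 21 WT library 1 the log2FC was -9.79 for Lyve1 and -6.56 for Cd163, without day 21 WT library 3 it was -4.79 and -3.82, and with the neutrophil covariate -4.33 and -3.78. The list's summed level was 747, 497 and 468 CPM in day 21 WT libraries, against 1315, 862, 925 and 992 CPM in naive WT libraries, so the groups did not overlap. Of 12 monocyte markers 5 fell, 3 without naive WT library 3 and 2 without day 21 WT library 2 or 3, and with the neutrophil covariate 1 was lower and 3 were higher. Of 4 dendritic cell markers Cd209a fell, and with that covariate 2 others were higher. Of 3 endothelial markers Pecam1 fell, and Flt1 was higher without naive WT library 3. No tested member of the T and NK cell (6), B and plasma cell (4) or erythroid (5) lists was called by edgeR; 2 T and NK cell markers had an unadjusted p under 0.05, Nkg7 among them, and DESeq2 called 1 of that list higher and 1 lower. With the neutrophil covariate 1 T and NK cell marker was higher and 1 B and plasma cell marker lower, and without naive WT library 1 a T and NK cell marker was lower. None of 8 neuron markers was called by edgeR or DESeq2 or had an unadjusted p under 0.05. T and NK cell markers summed to 4.52, 1.17 and 1.496 CPM at day 21, against 2.06, 3.28, 5.53 and 4.13 CPM in naive WT. Astrocyte markers summed to 331, 351 and 302 CPM in day 21 WT libraries, against 182, 202.9, 171.5 and 176 CPM in naive WT libraries, with 3 of 10 members called higher, 1 without day 21 WT library 1 and 1 with the neutrophil covariate. Slc1a2, a glutamate transporter of astrocytes, had 75.03, 95.3 and 51.7 CPM in the day 21 WT libraries, against 14.1, 26.7, 23.6 and 19.96 CPM in the naive WT libraries (log2FC 1.82, SE 0.77, edgeR adjusted p = 0.0973), and a log2FC of 0.28 with that covariate. Oligodendrocyte markers gave 2 higher calls of 8, Mag and Mobp, none without day 21 WT library 2 or naive WT library 3 or with the neutrophil covariate, and 1 without any one of the other 5 libraries.

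Some genes outside those groups had large changes. Pdyn, the precursor of dynorphin peptides, had 5.19, 8.20 and 9.26 CPM in the day 21 WT libraries, against 0.147, 0, 0 and 0.285 CPM in the naive WT libraries. It had 186 counts at day 21 and 3 in naive WT, which is 65.4-fold (95% counting interval 22.02 to 319.8) higher. Malat1, a long nuclear noncoding RNA, had 17112, 16954 and 16152 CPM in the day 21 WT libraries, against 10232, 6959, 10573 and 11413 CPM in the naive WT libraries, and its call rested on single libraries, being lost without any one of 4 (log2FC 0.77, SE 0.25, edgeR adjusted p = 0.0246). Actb, cytoplasmic beta-actin, had 2783, 2508 and 2701 CPM in the day 21 WT libraries, against 4591, 5403, 5209 and 5389 CPM in the naive WT libraries (log2FC -0.95, SE 0.19, edgeR adjusted p = 6.26e-04), and this call was lost with the neutrophil covariate. mt-Co1, a mitochondrial subunit of cytochrome c oxidase, had 1613, 1821 and 1836 CPM in the day 21 WT libraries, against 474, 637, 1414 and 561 CPM in the naive WT libraries (log2FC 1.19, SE 0.25, edgeR adjusted p = 0.00151), and its call was lost when the 7 libraries were fitted alone. Xist, expressed from the inactive X of females, had 1457, 1871 and 2045 CPM in the day 21 WT libraries, against 933, 794, 1138 and 627 CPM in the naive WT libraries. The day 21 libraries all lay above the naive ones, although the labels give a 1:1 pool of the sexes. Day 21 WT library 3, the highest, carries 1 animal-like number, so such a pool is not shown for it. The fitted change of Xist missed the threshold (log2FC 1.04, SE 0.87, edgeR adjusted p = 0.425). By an exact two-sided permutation test over the 7 libraries p was 0.0286, and 0.0762 after adjustment over 16 measures.

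The WT microglia at day 35 of EAE (4 libraries) show which of these changes differed at a later stage. They share the day 21 libraries with the comparison above, so values are given side by side. Between day 35 and day 21, 9 genes (0.0648%) were called, 8 lower (0.0576%) and 1 higher (0.00720%) at day 35. Ifit3 had 4.999, 7.97, 10.9 and 6.99 CPM in naive WT libraries, 42.7, 47.4 and 43.9 CPM in day 21 WT libraries and 22.5, 13.5, 26.5 and 21.4 CPM in day 35 WT libraries. The day 35 values lay between the other groups (log2FC -1.09 against day 21, SE 0.19, edgeR adjusted p = 0.0287). Tap1 had 56.3, 61.9, 91.8 and 68.9 CPM in naive, 280.2, 276 and 285 CPM in day 21 and 177.2, 149, 164.2 and 149 CPM in day 35 WT libraries (log2FC -0.81, SE 0.15, edgeR adjusted p = 0.0287). Irgm1, Ifit1, Oasl1, Oas1a, Dhx58 and H2-T22 were the other lower genes, with log2FC -0.66, -1.49, -1.51, -1.10, -0.87 and -0.87 at day 35 against day 21. Gimap6, a GTPase of the immunity-associated protein family, had 41.0, 42.2, 21.98 and 34.2 CPM in naive, 10.4, 9.37 and 11.7 CPM in day 21 and 24.7, 22.8, 19.4 and 22.2 CPM in day 35 WT libraries (log2FC 1.08, edgeR adjusted p = 0.0434).

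These day 35 calls rest on few libraries. Without day 35 WT library 3, whose title says WT and whose knockout status says knockout, 2 genes were called, Ifit1 and Ifit3. The number was 13 without day 35 WT library 1, 1 without day 21 WT library 2, and 0 without day 21 WT library 1 or 3 or day 35 WT library 2 or 4, where 737, 811, 656 and 893 genes had an unadjusted p under 0.05. With Xist as a covariate it was also 0 (987 genes at an unadjusted p under 0.05), and with DESeq2 it was 75.

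**Figure D5:**
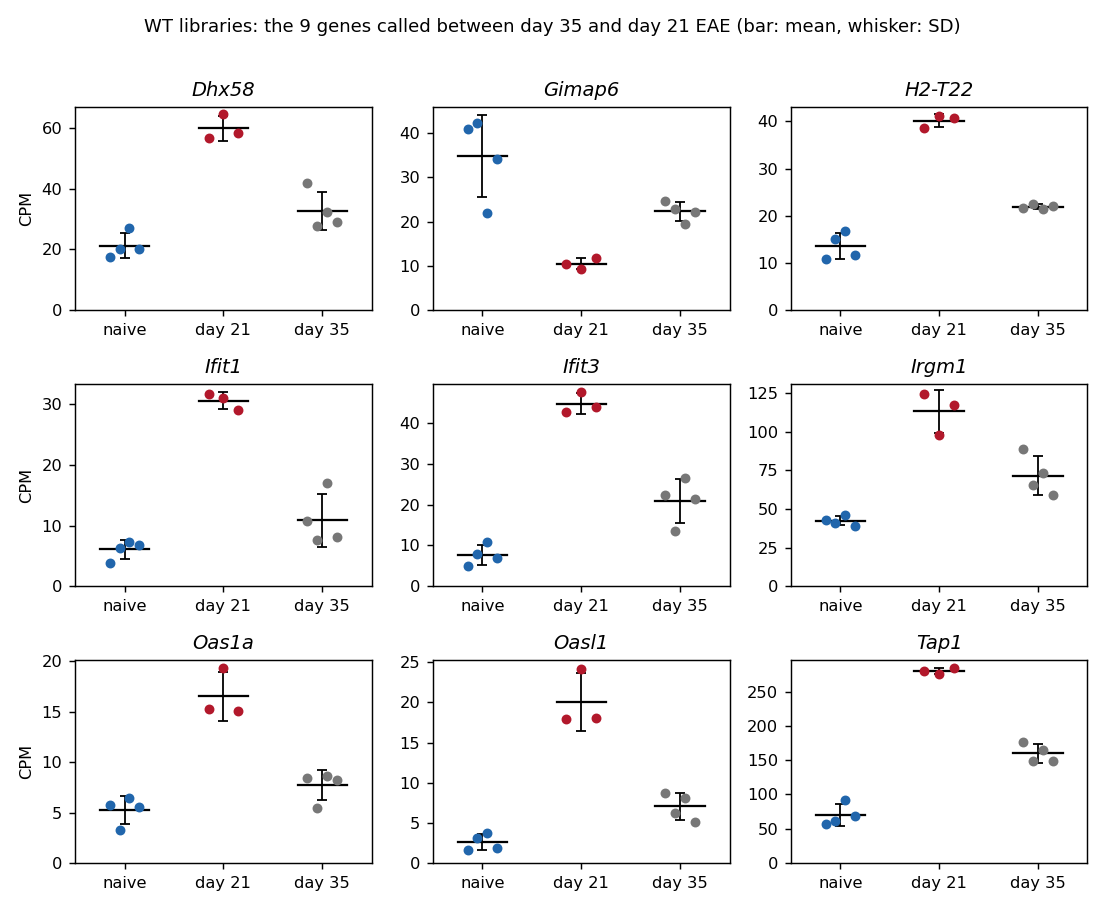
CPM (linear axis from 0) of the 9 genes called between day 35 and day 21 WT microglia, with 1 point per library for 4 naive, 3 day 21 and 4 day 35 WT libraries, a bar at the mean and a whisker of 1 SD. Except for Gimap6, which is lowest at day 21, the genes are highest at day 21, with day 35 between the other groups.

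The same change was measured in libraries labelled knockout, of Atg7fl/fl Cx3cr1CreERT microglia (4 libraries at day 21 and 4 naive). Atg7 had 31.7, 31.0, 31.7 and 36.9 CPM in the day 21 libraries labelled knockout, against 19.8, 25.3 and 24.6 CPM in day 21 WT libraries, so every library labelled knockout was above every WT one at that stage. It had 16.8, 20.7, 31.8 and 11.4 CPM in the naive libraries labelled knockout, against 26.6, 27.0, 40.1 and 32.8 CPM in naive WT libraries, with overlap. At day 21 the level of Atg7 was thus higher, not lower, in the libraries labelled knockout. The counts cover the whole gene, so they do not show whether a part of it was deleted, and the genotype was not tested. The change of Atg7 in WT minus that in the libraries labelled knockout missed the threshold (-1.14, SE 0.44, edgeR interaction adjusted p = 0.0975). The day 21 change in WT differed from that in the libraries labelled knockout in 1343 genes (9.68%), by an edgeR interaction test in the same fit. Cx3cr1 averaged 707 ± 251.2 CPM at day 21 and 2574 ± 1149 CPM in naive WT (SD, n = 3 and 4), against 305 ± 193 and 168.8 ± 82.2 CPM in the libraries labelled knockout (SD, n = 4 each). The count was 563, 514 and 588 without day 21 WT library 2, day 21 WT library 3 or naive WT library 3.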

How the data were processed

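Bulk RNA-seq counts of 46078 genes were read from 1 table of the whole series. Per the labels, RNA of sorted cells was amplified with a stranded SMARTer Pico kit for total RNA. CASAVA, bcl2fastq, STAR and the GRCm38 build are named in the submitters' processing notes, while no source used here gives the read counter or its strand setting. The deposited values are whole-number counts per gene without normalization. Per the labels and the deposited sample sheet, the EAE score and RIN values and the other recorded sample values were used as given; the scale of the EAE score is not stated. The count columns carry animal-like numbers, for which the deposited sample sheet gives plate wells and groups. The number in each title was read as a well counted down the plate's columns, an inference: this gave the group in the title for all 30 titles, and counting along the rows for 2. The 2 columns of 32 that match no title were not used. Rows without a symbol hold 0.0552% of counts.

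Computed here with R 4.3.3, edgeR 4.0.16 and limma 3.58.1: genes passed filterByExpr (minimum count 10, minimum total 15), were scaled by TMM and fitted with robust quasi-likelihood in a model of 8 groups (22 residual degrees of freedom), with Benjamini-Hochberg adjustment over 13880 genes and a threshold of 0.05. The depth of 4712803 to 11034565 counts limits genes of few counts. Genes with 0 to 3 counts over a WT group are given as ratios of summed counts or bounds at 3 counts over it. The ratios have exact 95% intervals, which cover counting error only. The exceptions are the interaction values of Arg2, Nkg7 and Pdyn and the values of Nkg7 with and without the neutrophil covariate, which are fitted. Levels in the text are CPM on TMM-scaled totals, which are not comparable between genes of different length. Summed marker levels, the EAE score, RIN, mitochondrial share and Xist (16 measures) were compared by exact permutation tests of 3 against 4, whose smallest p is 0.0286. The script was tested on simulated data. Alternatives were DESeq2 1.42.0, RLE size factors, no filter, the 7 libraries alone, the i5 index set as a block, Xist or the neutrophil marker level as a covariate, and leaving out each library. Leaving out single libraries in the day 35 comparison and in the comparison with the knockout was chosen after seeing the data.

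The groups compared, the 40 gene lists (28 of processes, 12 of cell type markers) and the rule for named genes were chosen with earlier results of these data known. The rule took Atg7, Cx3cr1, Tmem119, P2ry12 and Xist; the called genes with the largest fold changes, or differences of mean CPM, whose groups did not overlap; and the members of each list with the lowest adjusted p or, for markers, the highest level. Some genes are not reported here. Members named beyond the rule were chosen after their values were seen. Promoters are RefSeq's for GRCm38.p6, matched by symbol.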

Additional observations from a re-analysis of the deposited data

Results flagged for a closer look

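Given here are 19 of the named genes and other measures (10.98% of those looked at) in which 1 naive WT library lay farther from its nearest neighbour than the 95% limit of Dixon's test for 4 samples. Chance passes that limit about 1 time in 20. It was library 3 in all 19. It was the highest naive library for C4b (89.0 CPM), H2-Q7 (15.3 CPM), Cxcl13 (2.54 CPM), H2-K1 (438 CPM), Mx1 (16.3 CPM), Ifit2 (36.0 CPM), Stat2 (67.7 CPM), H2-Q4 (53.2 CPM), Psmb9 (25.9 CPM) and Cd40 (1.94 CPM). It was also the highest for Csf1 (88.7 CPM), Il12b (0.748 CPM), Tlr2 (133 CPM), Axl (149 CPM), P2ry2 (3.74 CPM), Ch25h (4.04 CPM), Apoc1 (3.29 CPM) and Flt1, a receptor of vascular endothelial growth factor (12.1 CPM). It was the lowest for Ighm, the IgM heavy chain (205.2 CPM). The same library had the highest summed neutrophil markers of the 7.

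The change from naive to day 21 differed between WT libraries and libraries labelled knockout, in which Atg7 at day 21 was above the WT level, by an edgeR interaction test, in 31 of the named genes reported here. Differences below are the log2 change in WT minus that in the libraries labelled knockout. It was negative for the interferon and GTPase genes Herc6 (-0.62), Gbp3 (-0.57), Irgm1 (-0.85), Gbp5 (-0.93), Stat2 (-0.88), Irf1 (-0.61) and Irf7 (-1.25), and for Psmb8 (-0.56), Ccl6 (-0.87), Il18bp (-1.48) and Ctsc (-0.48). It was positive for H2-M3 (0.99), Il16 (0.84), Pdyn (2.85) and Cxcl13 (4.40). Among microglia genes it was negative for Cx3cr1 (-2.72) and positive for P2ry12 (1.86), Cst3 (1.56), Sparc (1.08), Fcrls (1.35), Gpr34 (2.27), Slc2a5 (1.71) and Maf (0.98). Among the remaining genes it was -6.27 for Arg2, -5.55 for Mmp8, -7.23 for Chil3, -6.06 for Hp, -3.45 for Cd163, -4.63 for Nkg7, 1.01 for Ighm and 0.73 for Pecam1. Arg2 and Nkg7 had 2 and 3 counts over the day 21 WT libraries, and Pdyn had 3 over the naive WT libraries. The fitted differences of these genes rest on values near the floor and are uncertain in size.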

How the results depend on the processing

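The labels give no replicate numbers, so libraries were paired only through the i5 index set, which was used as a block and left the day 21 counts within 1.5 times. All named genes kept their side of the threshold with RLE size factors, and no called one changed direction. The i5 block ended 1 call, the Xist covariate 4 and the absence of a filter 9, while DESeq2 added 2. With the 7 libraries alone 5 lost their call and 2 gained one. With the neutrophil covariate 22 lost their call and 4 gained one. Among genes called in either fit, Chil3 and Flt3 also changed sign (log2FC 0.25 and 2.36). Genes called in neither fit could change sign too, as Atg7 (log2FC -0.44 to 0.48) and Nkg7 (-3.18 to 0.75) did. Nkg7 had 3 counts over the day 21 WT libraries, so its values are near the floor. The neutrophil level is lower in each day 21 library than in each naive one. Without a filter the genes called lower at day 21 numbered 1102, the members of process lists called lower 32, and the interaction calls 845. Between day 35 and day 21, the calls numbered 75 with DESeq2, 0 with the Xist covariate, 22 with the i5 block, 51 with the neutrophil covariate and 14 without a filter. The higher ones numbered 8, 0, 6 and 2 with DESeq2, the Xist covariate, the neutrophil covariate and no filter, and the lower ones 67, 0, 21 and 45 with DESeq2, the Xist covariate, the i5 block and the neutrophil covariate. Their causes were not tested. With 1 library left out, the day 21 calls ranged from 1727 to 3002 (885 to 1396 higher, 842 to 1606 lower), the process list members from 121 to 140 higher and 29 to 54 lower, the day 35 calls from 0 to 13 (0 to 0 higher, 0 to 13 lower) and the interaction calls from 514 to 1639. No gene called in any of the 3 comparisons was called in the opposite direction in it under these settings. Among the gene groups, the lower calls without a filter numbered 2 for STAT and IRF factors, 2 for complement, 7 for homeostatic genes, 3 for autophagy and 3 for monocyte markers, 1 each for costimulation, disease-associated and scavenger genes, and 0 for MHC class I and cholesterol export; the higher ones numbered 3 for cytokines, 1 for immediate-early genes and 0 for oligodendrocyte markers. With the 7 libraries alone the lower calls numbered 4 for inflammasome genes, 3 for inflammatory enzymes, 2 each for interferon ligands and receptors, glycolysis, sterol synthesis and proliferation, and 1 each for Fc receptors and B and plasma cell markers, and the higher ones 6 for astrocyte markers and 2 each for scavenger receptors and inflammatory enzymes. DESeq2 called 2 lower for MHC class I, inflammasome genes and inflammatory enzymes. With the Xist covariate the lower calls numbered 0 for MHC class I and 1 for costimulation and for scavenger genes, and the higher ones 0 for autophagy and 1 for immediate-early genes. The i5 block left 1 lower costimulation gene and 1 higher oligodendrocyte marker. Calls of members named without library values that were also lost without 1 or more libraries include Ifnar1, Socs1, Ccl7, Il1a, Il27, Cd14, Ly96, Myd88, Bcl3, Irak1, Selplg, P2ry13, Golm1, Sparc, Tgfbr1, Clec7a, Fabp5, Ank, Grn, Gla, Pik3c3 and Calcoco1. Depth limits genes of a few counts, such as Pdyn in naive WT and the granulocyte genes at day 21.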

Other observations

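Calls of day 21 against naive WT microglia were also counted in 12 gene families. Some members are also in the lists above, among them Ifi204, Parp14, S100a8, S100a9, S100a4, Ly6g and Ly6c2. The family counts therefore partly repeat the list counts. The families were chosen after their values were seen, so only counts and values are given, beside 9.51% of all genes called higher and 12% called lower. Of 10 tested genes of the Ifi200 family, interferon-induced proteins that bind nucleic acid, Ifi204, Ifi206, Ifi207, Ifi209, Ifi211 and Ifi213 were called higher and none lower (median log2FC 1.80). Ifi206 had 20.4, 18.3 and 15.99 CPM in the day 21 WT libraries, against 0.735, 1.88, 4.04 and 1.71 CPM in the naive WT libraries, and Ifi211 had 8.54, 7.47 and 9.35 CPM in the day 21 WT libraries, against 1.18, 1.88, 4.04 and 1.85 CPM in the naive WT libraries. Of 12 tested poly(ADP-ribose) polymerase genes, Parp3, Parp9, Parp10, Parp11, Parp12 and Parp14 were called higher and none lower (4 to 6 higher with 1 library left out). Parp14, which modifies proteins of the interferon response, had 349, 338 and 362 CPM in the day 21 WT libraries, against 177.01, 157, 189 and 155.95 CPM in the naive WT libraries. Apobec3, Apobec1 and Adar, which edit nucleic acids, were called higher among 4 tested deaminase genes.

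Other families were mixed. The Schlafen genes gave 3 higher and 2 lower calls of 7 tested, the Ly6 family 3 and 2 of 5, and the annexins 2 and 4 of 9. The Gimap genes gave 2 lower calls of 6, the S100 genes 7 of 9 and the Cd300 family 4 of 8, with none higher. With the neutrophil covariate the lower calls were 0 for Schlafen genes, 1 for the Ly6 family, 1 for annexins and 3 for S100 genes, and 1 gene of the Cd300 family was higher.

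Of 9 genes of Hsp90 and its cochaperones 6 were called lower (Chordc1, Ahsa1, Hsp90ab1, Stip1, Fkbp4 and Ptges3) and none higher, 5 with the neutrophil covariate and 3 to 6 with 1 library left out. Hsp90ab1, the constitutive cytosolic Hsp90, had 733, 718 and 756 CPM in the day 21 WT libraries, against 1316, 1147, 707 and 998 CPM in the naive WT libraries. Of 25 genes of the actin cytoskeleton 17 were called lower and none higher (median log2FC -0.87), 3 with the neutrophil covariate and 9 to 17 with 1 library left out. Of 8 mRNAs of mitochondrial DNA 7 were called higher (median log2FC 1.04), 2 with the neutrophil covariate. The part of the neutrophil marker level in these differences was not tested beyond that term.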
